A study of Homo sapiens with 4 samples.

Results

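Hyaluronan metabolism in 786-O cells was described through 8 genes, CD44, HAS2, HAS3, HYAL1, HYAL2, HYAL3, CEMIP and HMMR, taken by symbol from a table of 59409 genes. They were selected on their TPM values in the DEK knockout and control libraries, so the difference between these groups was already known when they were chosen. Their TPM values, and any difference drawn from those values between the same libraries, are therefore given as a description and support no claim. 786-O is an established human line from a clear cell renal carcinoma, with an inactive VHL tumour suppressor. DEK is a chromatin-associated protein. The study held 2 control libraries, labelled WT and negative control and named for Cas9 in the table, and 2 libraries labelled DEK KO. The knockout cells came from a parental clone that expressed Cas9 after infection with LentiCas9-Blast. That clone was infected with LentiGuide-Puro virus carrying DEK gRNAs and sorted as single cells. All cells were grown in serum-containing medium, and mRNA libraries were sequenced. Whether the controls carried a guide, from which clone each knockout library was made, and whether replicates were separate cultures is not said in the labels. A p-value here covers only how far these particular libraries spread, and that spread may be technical.

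Hyaluronan is a long unbranched sugar polymer of the extracellular matrix. It is made at the plasma membrane by the synthases HAS1, HAS2 and HAS3 from UDP-glucuronic acid and UDP-N-acetylglucosamine. It is bound at the cell surface mainly by CD44 and by HMMR (RHAMM), and it is cut by the hyaluronidases HYAL1 and HYAL2 and in a process that needs CEMIP (KIAA1199). HYAL3 belongs to the hyaluronidase family by sequence. In the kidney hyaluronan is abundant in the medulla, and CD44 is low in the healthy tubule.

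DEK mRNA measured 95.02 and 76.3 TPM (controls) against 31.4 and 15.7 TPM (knockouts), with a limma log2 fold change of -1.89 and an adjusted p of 0.030 (SE 0.33). It was not past the threshold without control 1 (-1.73, adjusted p = 0.14) or without control 2 (-2.05, adjusted p = 0.10). Depth, estimated from the steps of the smallest TPM values, lay between 35800000 and 40000000 reads per library. Of 8 markers of the renal line 7 were expressed above 1 TPM, PAX8 at 140 to 160.4 TPM. KRT18 rose and PAX2 fell (24.8 and 22.1 TPM to 12.4 and 8.94 TPM, limma adjusted p = 0.027), and their part in the differences described here was not tested. CA9, a carbonic anhydrase used as a marker of clear cell carcinoma, was between 0 and 0.346 TPM. Leukocyte markers were summed because CD44 is also a leukocyte antigen, and their 5 genes together came to 0.362 to 0.762 TPM. PTPRC (CD45) was at 0 in 3 libraries and at 0.0129 TPM in knockout 2. The 4 endothelial markers summed to 0.0186 to 0.327 TPM and the 5 fibroblast markers to 1.49 to 2.38 TPM, nearly all of it COL1A1.

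Of the 8 genes, 5 reached 1 TPM in at least 2 libraries and were entered in the fit over 15815 genes: CD44, HAS3, HYAL2, HYAL3 and HMMR. HAS2, HYAL1 and CEMIP stayed below 1 TPM in every library. In that fit CD44, HAS3 and HYAL3 were called higher in the knockout at an adjusted p under 0.05, as were 9.06% of all tested genes, and 0 of the 5 were called lower, against 8.67% of all tested genes. Both knockouts lay above both controls for CD44, HAS3, HYAL2 and HYAL3 (29.2% of all tested genes), and HMMR overlapped between groups. In bulk RNA a change in the mix of cells and a change in RNA per cell cannot be told apart. The median log2 difference was 0.48 over the 5 genes and -0.06 over all tested genes. Without control 1 or without control 2 the calls were 0 of 5, and only 0.307% and 0.333% of all genes were then called. In those fits the log2 differences were 2.81 and 2.77 for CD44, 0.45 and 0.51 for HAS3, and 0.77 and 0.76 for HYAL3. Those of HYAL2 were 0.23 and 0.22, and those of HMMR were -0.09 and -0.43. Without knockout 1 the log2 differences were 3.21 for CD44, 0.52 for HAS3, 0.73 for HYAL3, 0.32 for HYAL2 and -0.68 for HMMR. Without knockout 2 they were 2.38, 0.45, 0.81, 0.13 and 0.17 in the same order.

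**Figure D1:**
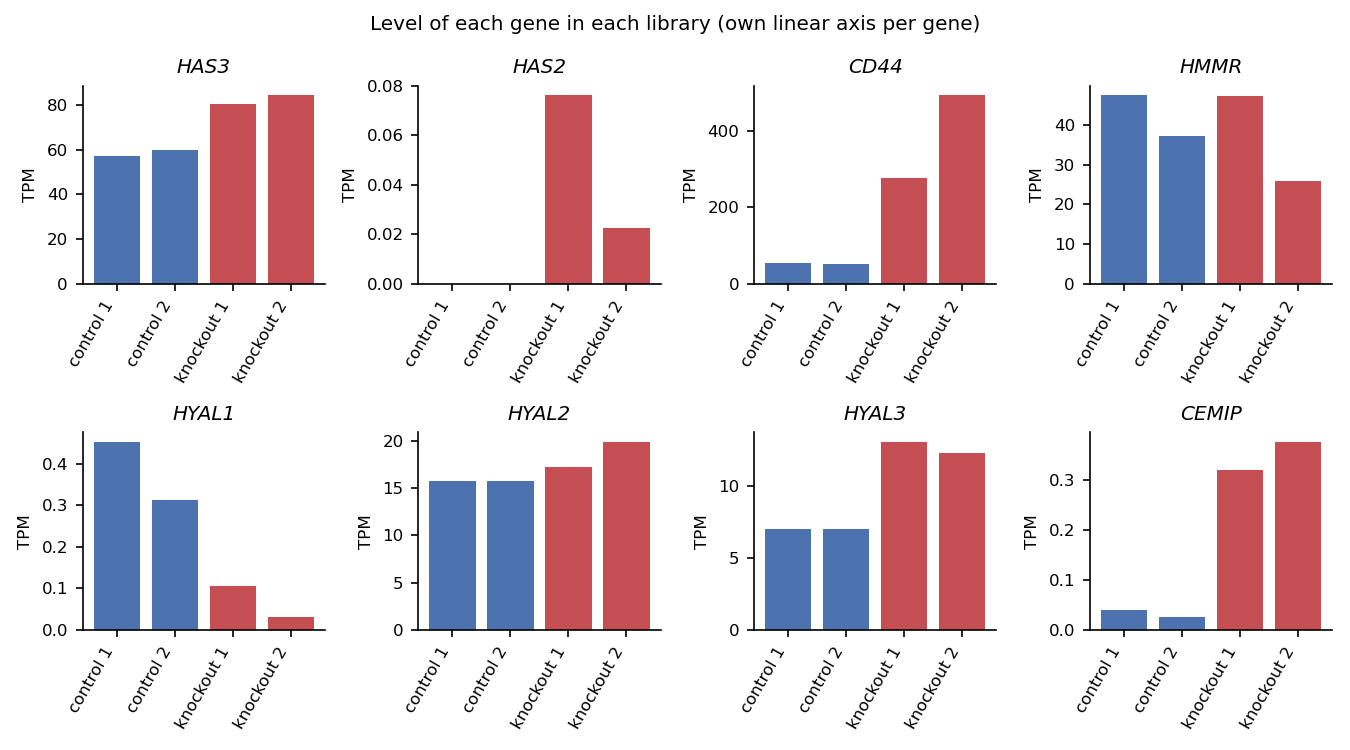
Bars give the level (TPM, linear axis from 0, a separate axis for each gene) of the 8 genes in the 2 control libraries (blue) and the 2 knockout libraries (red). Among the 5 tested genes CD44, HAS3, HYAL2 and HYAL3 stand above both controls in both knockouts (29.2% of all tested genes) and HMMR overlaps. HAS2, HYAL1 and CEMIP are below 1 TPM throughout.

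The order of the levels in TPM, which are per transcript length, differed between the groups. In the controls it ran from HAS3 (57.3 and 59.9) through CD44 (53.2 and 51.9), HMMR (47.6 and 37.2), HYAL2 (15.8 and 15.7) and HYAL3 (7.06 and 7.01) down to HYAL1, CEMIP and HAS2, and no neighbours in that order overlapped. In the knockouts CD44 came first, followed by HAS3, HMMR, HYAL2, HYAL3 and CEMIP. HYAL1 and HAS2 overlapped at the bottom. CD44 mRNA stood at 0.896 of the HAS3 level in the control means and at 4.68 times it in the knockout means.

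Promoters of 4 of the genes, CD44, HAS3, HYAL3 and HYAL2, are shown. These 4 were picked after their values were seen, so the motifs they hold are a description. A relation of motifs to levels was not tested. Promoter sequences of 7 of the 8 genes were examined, from RefSeq on GRCh38.p14, each with 250 bases before the annotated start and 50 after it, 5' to 3' on the gene's strand. They lie at chr11:35138921-35139220 (CD44, plus strand), chr16:69107290-69107589 (HAS3, plus), chr3:50299356-50299655 (HYAL3, minus) and chr3:50322696-50322995 (HYAL2, minus). Capitals mark matches to the hypoxia response core ACGTG on either strand.
CD44: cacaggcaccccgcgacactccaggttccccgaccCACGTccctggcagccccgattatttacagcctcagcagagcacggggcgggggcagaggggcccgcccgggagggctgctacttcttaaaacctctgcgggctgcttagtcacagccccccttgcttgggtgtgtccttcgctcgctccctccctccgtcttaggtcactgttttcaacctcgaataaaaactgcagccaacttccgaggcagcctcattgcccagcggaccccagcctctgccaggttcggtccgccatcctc
HAS3: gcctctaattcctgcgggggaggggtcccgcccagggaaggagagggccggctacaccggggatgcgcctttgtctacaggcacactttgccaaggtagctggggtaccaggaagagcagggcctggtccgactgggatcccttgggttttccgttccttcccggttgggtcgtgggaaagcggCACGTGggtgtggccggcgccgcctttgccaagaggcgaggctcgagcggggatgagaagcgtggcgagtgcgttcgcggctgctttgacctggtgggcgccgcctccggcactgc
HYAL3: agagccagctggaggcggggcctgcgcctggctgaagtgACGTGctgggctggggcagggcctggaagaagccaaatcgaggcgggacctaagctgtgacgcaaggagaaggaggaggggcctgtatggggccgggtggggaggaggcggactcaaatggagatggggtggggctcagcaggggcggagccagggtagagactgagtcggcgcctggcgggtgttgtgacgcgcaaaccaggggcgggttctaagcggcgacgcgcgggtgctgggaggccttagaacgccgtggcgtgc
HYAL2: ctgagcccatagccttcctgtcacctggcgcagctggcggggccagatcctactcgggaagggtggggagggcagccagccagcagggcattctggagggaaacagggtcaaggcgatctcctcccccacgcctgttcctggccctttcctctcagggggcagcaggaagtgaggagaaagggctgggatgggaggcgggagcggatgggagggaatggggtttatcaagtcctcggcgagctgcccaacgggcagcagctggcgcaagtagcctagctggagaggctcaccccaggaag

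The core was present at position -215 in CD44, counted back from the base before the start as -1, and at -211 in HYAL3. In HAS3 it was found on both strands at the overlapping positions -66 and -65, where the letters are those of an E-box, CACGTG. It was not found in these windows of HYAL2, HYAL1, CEMIP or HMMR, and 21.4% of 35116 RefSeq promoters of the same length hold it. The HYAL3 window is also the annotated promoter of NAA80, and another annotated HYAL3 start had no match. The GC box GGGCGG, on either strand, occurred 2 times in CD44 and in HYAL3, 1 time in HAS3 and 0 times in HYAL2. It also occurred 2 times in HYAL1, 3 times in CEMIP and 1 time in HMMR, and 45.0% of promoters hold it. The AP-1 motif TGANTCA was in none of these windows (7.71% of promoters). The NF-kB motif was found only in the window of that other HYAL3 start (11.3% of promoters). These are matches of letters and give no information on binding. For HAS3 and HYAL1 the RefSeq start used here lies inside the gene span of GENCODE, so the start of that span was not searched.

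HAS3 was the synthase that these cells expressed. It lies on chromosome 16 from 69105564 to 69118719 on the plus strand (GRCh38) and overlaps CHTF8 on the opposite strand. HAS3 measured 57.3 and 59.9 TPM (controls) and 80.3 and 84.3 TPM (knockouts). All 4 values were close within their group and the groups did not overlap. The mean went from 58.6 ± 1.87 to 82.3 ± 2.82 TPM (SD, n = 2 libraries per group), 1.40-fold, with a log2 difference of 0.48 (SE 0.07).

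The other synthases were at or near the limit of detection. HAS2, on chromosome 8, was listed at 0 in both controls, with 0.0763 TPM in knockout 1 and 0.0226 TPM in knockout 2, an estimated 3 and 1 reads. A count of 0 allows up to 3 reads per library, so no fold is given and a difference was not detectable at this depth. HAS2-AS1, the antisense transcript of that locus, was listed at 0 in 3 libraries and at 0.0230 TPM in knockout 2. For HAS1 the estimate was 1 and 0 reads (controls) against 1 and 2 reads (knockouts). HAS3 made up at least 99.8% of the summed TPM of the 3 synthases in every library. Read numbers are estimates from the TPM steps.

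CD44 encodes the main cell-surface receptor for hyaluronan, a transmembrane glycoprotein that also binds osteopontin and is linked to the actin cytoskeleton through ezrin, radixin and moesin. The gene spans chromosome 11 from 35138870 to 35232402 on the plus strand. CD44 had 53.2 and 51.9 TPM without and 277 and 494 TPM with the DEK knockout. The controls were nearly equal, both knockouts were far above them, and knockout 2 was 1.78 times as high as knockout 1. The means were 52.5 ± 0.956 and 385 ± 153 TPM (SD, n = 2), 7.34-fold apart, with a log2 difference of 2.79 (SE 0.27). Against the control mean it was 5.28-fold in knockout 1 and 9.40-fold in knockout 2. By mean level CD44 ranked 3039 of 15815 tested genes in the controls and 329 in the knockouts, and 45 tested genes had a larger log2 rise.

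CD44 mRNA is spliced into a standard form and variant forms, which a value per gene does not separate. ESRP1 and ESRP2, splicing factors that favour the variant exons, were low in all libraries, at 0.0992 to 0.418 TPM for ESRP1 and 0.311 to 0.542 TPM for ESRP2. Transcripts annotated inside CD44 were also higher in both knockouts. CD44-AS1, which is antisense to CD44, stood at 1.68 and 1.62 TPM in control cells against 19.6 and 33.7 TPM in knockout cells (log2 difference 3.33, SE 0.27). AL133330.1, on the same strand within a CD44 intron, measured 0.140 and 0 TPM (controls) and 1.38 and 2.59 TPM (knockouts). It reached 1 TPM only in the knockouts, which alone brought it into the fit, so no test is given for it. In both transcripts knockout 2 was above knockout 1, as in CD44. Whether reads were counted by strand is not given in the sources used here, so reads of CD44 and of these transcripts cannot be told apart. For that reason no test is given for CD44-AS1 either.

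The tested genes with the profile most like that of CD44 were found by Euclidean distance between log2(TPM + 1) values centred over the 4 libraries. In order they were SLCO4A1 (distance 0.134), STMN3 (0.215), ARHGAP22 (0.225), KRT15 (0.232) and NT5E (0.233). SLCO4A1, an organic anion transporter gene, had 63.1 and 56.7 TPM without and 288 and 551 TPM with the DEK knockout, values close to those of CD44 in every library. NT5E, which encodes the ecto-5'-nucleotidase CD73, was at 8.90 and 9.59 TPM and at 60.1 and 109.6 TPM.

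The hyaluronidase genes HYAL3, HYAL1 and HYAL2 lie next to each other on the minus strand of chromosome 3, between 50292831 and 50322906. HYAL2, a lipid-anchored enzyme that cuts long chains, was the highest of them. HYAL2 stood at 15.8 and 15.7 TPM in control cells against 17.3 and 19.9 TPM in knockout cells. Both knockouts were above both controls, and the means were 15.7 ± 0.0491 and 18.6 ± 1.84 TPM (SD, n = 2). HYAL2 overlaps TUSC2 on the same strand. HYAL2 was not called, and its log2 difference of 0.22 (SE 0.11) was 0.10 after removal of the trend with GC content.

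HYAL3 measured 7.06 and 7.01 TPM (controls) and 13.1 and 12.3 TPM (knockouts). Replicates were close in both groups, and the means of 7.03 ± 0.0377 and 12.7 ± 0.554 TPM (SD, n = 2) were 1.81-fold apart, with a log2 difference of 0.77 (SE 0.12). HYAL3 overlaps IFRD2 and NAA80 on the same strand, so its value is uncertain to the extent that reads are shared. NAA80, an actin N-terminal acetyltransferase gene that lies within HYAL3, had 6.68 and 6.04 TPM without and 7.78 and 7.13 TPM with the DEK knockout (log2 fold change 0.20, limma adjusted p = 0.33). IFRD2 was at 65.01 and 64.4 TPM and at 59.0 and 67.98 TPM.

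HYAL1, the lysosomal enzyme, was below 1 TPM in all libraries. HYAL1 stood at 0.453 and 0.312 TPM in control cells against 0.106 and 0.0314 TPM in knockout cells, an estimated 14 and 10 reads against 3 and 1. Both knockouts were below both controls. Adjusted for depth, the control libraries held 5.74 times the reads of the knockouts (exact 95% interval 1.97 to 22.7, for counting error only). The interval pools the libraries of each group and ignores the choice of the gene on these values, so it tests no difference.

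CEMIP, needed for hyaluronan breakdown in fibroblasts, lies on chromosome 15 from 80779343 to 80951776 and was also below 1 TPM. CEMIP measured 0.0402 and 0.0258 TPM (controls) and 0.321 and 0.377 TPM (knockouts), an estimated 3 and 2 reads against 22 and 29. Both knockouts were above both controls, with 10.7 times the reads after adjustment for depth (exact 95% interval 4.29 to 34.3, for counting error only). That interval, too, pools the libraries of each group and ignores how the gene was chosen, so it tests no difference. CEMIP2, a cell-surface relative, was expressed at a much higher level. CEMIP2 had 50.6 and 51.96 TPM without and 31.1 and 40.4 TPM with the DEK knockout and did not pass the test (log2 fold change -0.52, limma adjusted p = 0.066).

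HMMR encodes a hyaluronan-binding protein that also sits on the mitotic spindle, and its mRNA is highest in dividing cells. It lies on chromosome 5 from 163460203 to 163491945, with HMMR-AS1 on the opposite strand. HMMR stood at 47.6 and 37.2 TPM in control cells against 47.4 and 25.8 TPM in knockout cells. Knockout 1 was close to control 1, knockout 2 was the lowest library, and the groups overlapped. The log2 difference of -0.26 (SE 0.31) was smaller than its error. Its sign depended on the libraries and on the processing: it was 0.17 without knockout 2, -0.68 without knockout 1 and 0.13 after removal of the trend with GC content. The longest HMMR transcript has 36.7% GC. For HMMR-AS1 the estimate was 8 and 4 reads (controls) against 8 and 3 reads (knockouts).

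A list of 24 other mitosis genes was set beside HMMR, and 23 of them were tested. ANLN, which encodes the cytokinesis scaffold anillin, fell from 193 and 195 TPM to 119 and 83.7 TPM (log2 fold change -0.95, limma adjusted p = 0.032). ANLN was not called without a variance trend, where CENPE, a kinetochore motor gene in the fit through the controls only, was the one called lower. ANLN was the only gene of the list called, and by limma 0 rose. At an unadjusted limma p under 0.05, 0 rose and 15 fell, against 2670 and 3386 of all 15815 tested genes. The list's median log2 fold change was -0.38, against -0.06 over all tested genes. In 18 of the 23 genes both knockouts were below both controls, against 39.0% of all tested genes. Knockout 2 was low for HMMR and for most of these genes, as the plot of centred values shows, and the part of this in the HMMR values was not tested. Without knockout 1 the number that fell was 19, without knockout 2 it was 7, and without either control it was 0 (3 and 5 at an unadjusted limma p under 0.05).

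**Figure D2:**
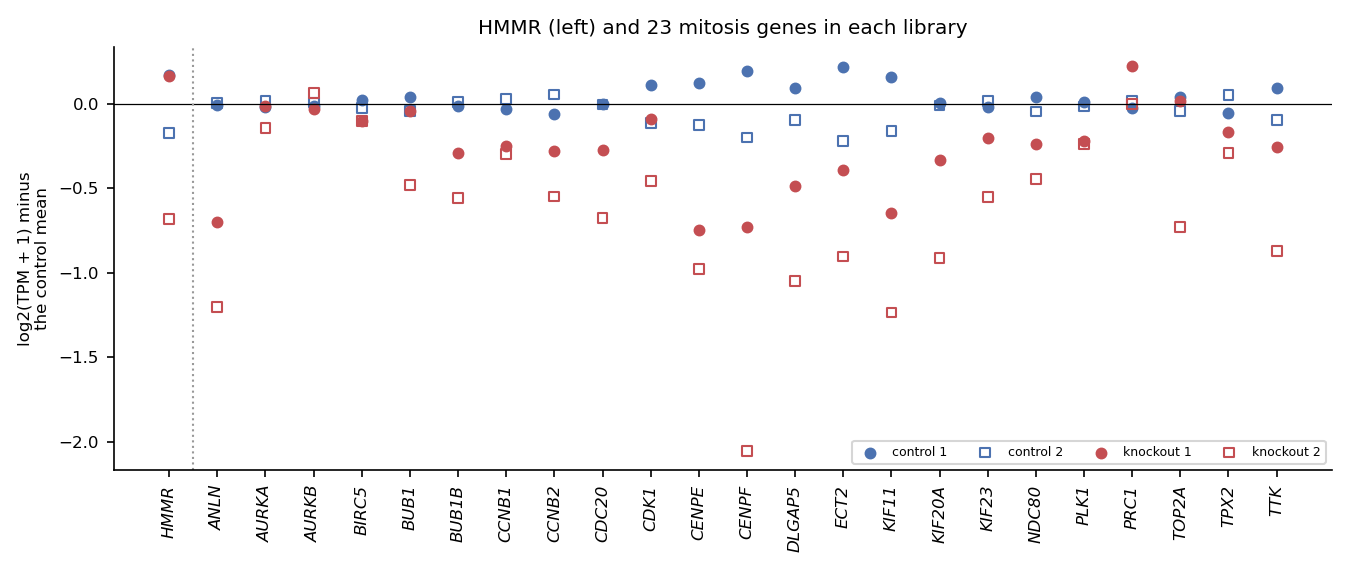
Points give log2(TPM + 1) minus the mean of the controls for HMMR, left of the dotted line, and for the 23 tested mitosis genes, in control 1 and knockout 1 (filled circles) and control 2 and knockout 2 (open squares). HMMR in knockout 1 coincides with control 1, whereas in 18 of the 23 mitosis genes both knockouts (red) lie below both controls (blue).

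The genes whose profiles were nearest to that of HMMR, by the same distance, were BRIP1 (0.0766), APC (0.112), MIR1281 (0.130), CPLANE1 (0.132) and RANBP2 (0.146). BRIP1, a DNA helicase gene, measured 6.88 and 5.64 TPM (controls) and 6.91 and 3.43 TPM (knockouts). In these genes, too, knockout 2 was the lowest library, which follows from how they were picked. None of the 24 mitosis genes was among the 5. As only 5 of 10716 genes were taken, that absence says nothing on HMMR and mitosis.

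The rest of the hyaluronan pathway was read from 44 further genes, of which 24 were tested, 2 were called higher and 4 lower. The background was 17.7% of all tested genes called, 9.06% higher and 8.67% lower. TLR4 and ITIH5, among those called, had entered the fit through 1 group only, and without them 1 of 22 rose and 3 fell. The list median was -0.06, equal at that precision to the median of all tested genes. The split depended on scaling, with all 24 genes giving 3 called higher and 2 lower under median-ratio scaling and 7 higher and 3 lower after removal of the GC trend. It also depended on single libraries: without knockout 1 there were 4 rises and 10 falls, and without control 1 or without control 2 there were 0 of either (4 rises and 4 falls, and 2 rises and 5 falls, at an unadjusted limma p under 0.05).

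Of the 11 genes of precursor supply and synthesis 9 were tested by limma, 0 rose and 2 fell, UGDH and UAP1L1. At an unadjusted limma p under 0.05, 2 were higher and 4 lower. Over all 15815 tested genes 2670 were higher and 3386 lower at that unadjusted limma p. After removal of the GC trend GFPT1, PGM3 and UAP1, enzymes of the hexosamine pathway, were called higher and UGDH was not called. UGDH, the dehydrogenase that makes UDP-glucuronic acid, fell from 101 and 104 TPM to 65.7 and 78.2 TPM (log2 fold change -0.51, SE 0.10, limma adjusted p = 0.039). UAP1L1, a relative of the UDP-N-acetylglucosamine pyrophosphorylase UAP1, fell from 67.4 and 64.1 TPM to 49.5 and 41.9 TPM (-0.52, limma adjusted p = 0.039). UGDH and UAP1L1 were not called under median-ratio scaling. GFPT2, an enzyme of the first step of the hexosamine pathway, had 3.13 and 3.02 TPM without and 6.82 and 18.9 TPM with the DEK knockout and did not pass (limma adjusted p = 0.070), and its more abundant relative GFPT1 was at 44.6 and 43.6 TPM and at 46.8 and 43.1 TPM. No gene of the degradation group passed: of 7 genes 5 were tested by limma, with 3 higher and 1 lower at an unadjusted p under 0.05. GUSB and HEXA, lysosomal enzymes that act late in hyaluronan breakdown, had both knockouts above both controls, with log2 fold changes of 0.33 and 0.32 (limma adjusted p = 0.081 and 0.067). After removal of the GC trend HEXA was called higher. SPAM1, the sperm hyaluronidase, was at 0 in all libraries.

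Of the 26 genes of hyaluronan-binding proteins 10 were tested, and 2 were called higher and 2 lower, against 9.06% and 8.67% of all tested genes. Without TLR4 and ITIH5, 1 of 8 rose (PTX3) and 1 fell (AMBP). PTX3, a pentraxin that helps to organise hyaluronan matrix, stood at 1.73 and 3.19 TPM in control cells against 11.8 and 27.4 TPM in knockout cells (7.98-fold, limma adjusted p = 0.030). TLR4, an innate receptor that responds to hyaluronan fragments, was at 0.873 and 0.644 TPM in control and at 2.09 and 2.55 TPM in knockout libraries. TLR4 reached 1 TPM only in the knockouts, so no test is given for it. AMBP, the precursor of the bikunin chain of inter-alpha-inhibitor, fell from 11.7 and 12.5 TPM to 4.78 and 3.27 TPM (log2 fold change -1.39, limma adjusted p = 0.020). ITIH5, of the family of heavy chains that can be linked to hyaluronan, was at 2.22 and 1.89 TPM in control and at 0.0689 and 0.0736 TPM in knockout libraries. ITIH5 reached 1 TPM only in the controls, and no test is given for it either. The proteoglycan VCAN, the most abundant hyaluronan-binding proteoglycan of the list, measured 263 and 248 TPM (controls) and 152 and 80.6 TPM (knockouts) and did not pass (limma adjusted p = 0.057). TNFAIP6, which transfers heavy chains to hyaluronan, had 112 and 116 TPM without and 109.7 and 47.9 TPM with the DEK knockout (limma adjusted p = 0.28), with knockout 2 alone clearly lower. The receptor genes LYVE1 and STAB2 were at 0 in both controls, and LYVE1 was at 0 in the knockouts as well.

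Partner genes are those whose products bind, cleave, anchor or splice CD44. Of 35 such genes 30 were tested, and 3 were called higher and 10 lower, against 9.06% and 8.67% of all tested genes, with a median of -0.09. Without MMP9, which entered the fit through the knockouts only, 2 of 29 rose and 10 fell. LRP1, an endocytic receptor, rose from 24.2 TPM in both controls to 49.5 and 50.2 TPM (log2 fold change 1.01, limma adjusted p = 0.011). MMP14, the membrane metalloproteinase that cleaves CD44, rose from 286 and 275 TPM to 492 and 663 TPM (2.06-fold, limma adjusted p = 0.022). MMP9, a gelatinase held at the surface by CD44, was at 0.846 and 0.571 TPM in control and at 4.29 and 6.70 TPM in knockout libraries, and no test is given for it. In each of these 3 genes both knockouts were above both controls.

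The falls included other sheddases and the cytoskeletal linker. EGFR fell from 175 and 172 TPM to 89.96 and 72.1 TPM (log2 fold change -1.10, limma adjusted p = 0.016), and SLC3A2, the heavy chain of amino acid transporters, from 530 and 528 TPM to 372 and 355 TPM (limma adjusted p = 0.016). ADAM10, the main constitutive CD44 sheddase, fell from 72.8 and 69.2 TPM to 46.7 and 32.0 TPM (limma adjusted p = 0.043), and ADAM17 from 50.9 and 50.8 TPM to 37.1 and 33.0 TPM (limma adjusted p = 0.030). Neither of these sheddases was called after removal of the GC trend or without a variance trend. EZR, ezrin, fell from 363 and 358 TPM to 304 and 294 TPM (limma adjusted p = 0.043). The related linker MSN stood at 526 and 530 TPM in control cells against 556 and 639 TPM in knockout cells and did not pass (limma adjusted p = 0.20). KHDRBS1, HNRNPM and SRSF1, RNA-binding proteins linked to CD44 splicing, fell by 0.47, 0.43 and 1.47 on the log2 scale (limma adjusted p = 0.021, 0.022 and 0.024). SPP1, osteopontin, a CD44 ligand, measured 860 and 818 TPM (controls) and 811 and 457 TPM (knockouts) and did not pass (limma adjusted p = 0.27). Under median-ratio scaling 3 of the 30 partner genes were called higher and 6 lower, and EZR and ADAM10 were not called. Without knockout 1 the counts were 7 and 14, and without control 1 or without control 2 they were 0 and 0 (4 rises with 8 and with 9 falls at an unadjusted limma p under 0.05).

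**Figure D3:**
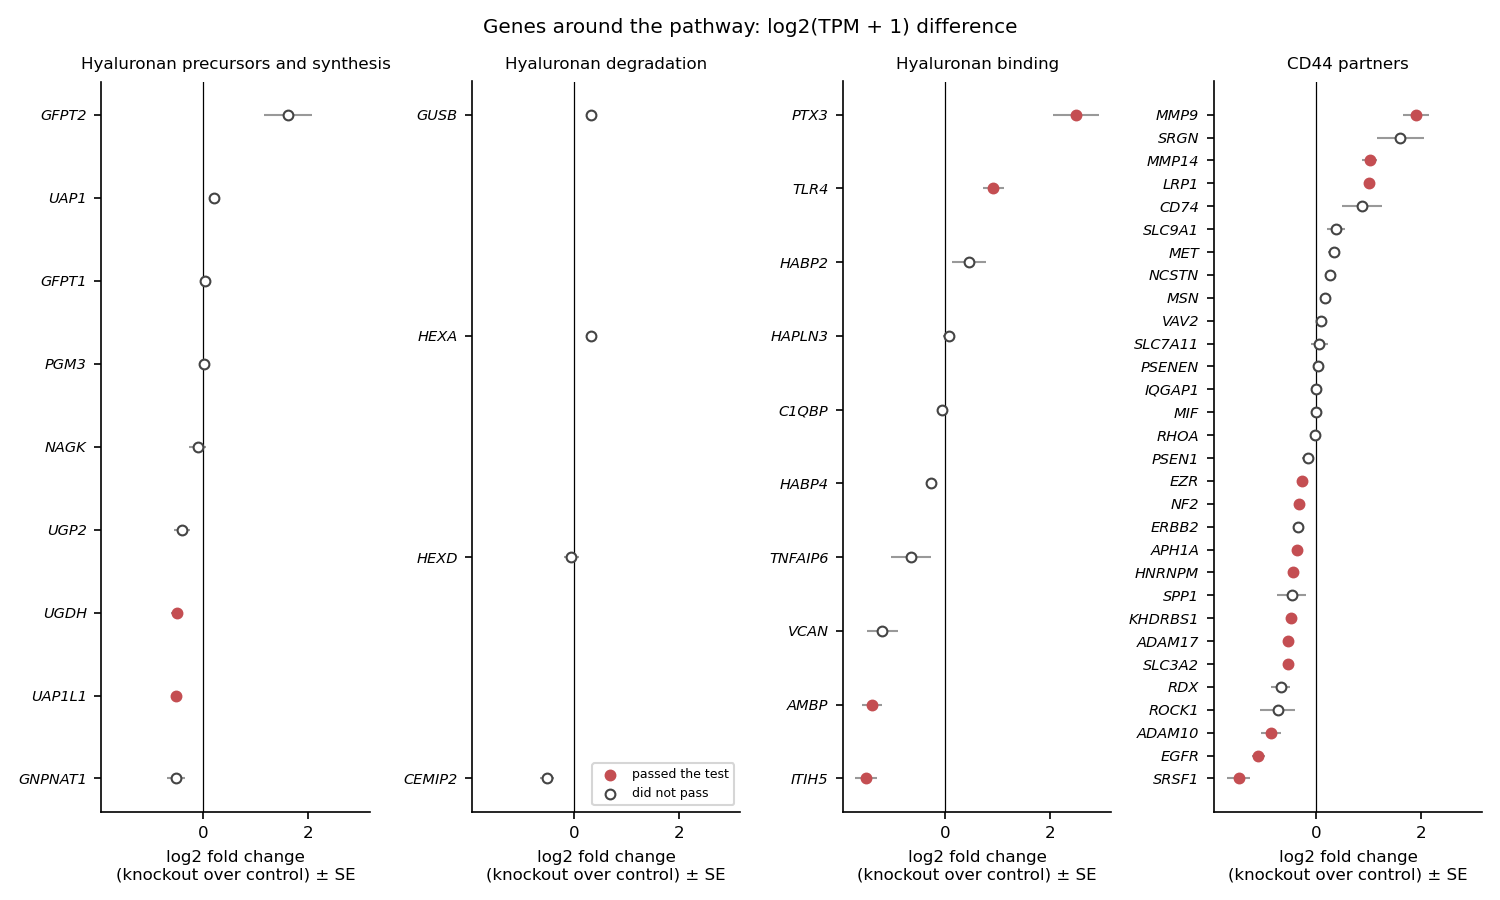
Each point is a tested gene, with its log2 fold change of TPM + 1 (knockout over control, error bars are the standard error) in 4 panels for precursor, degradation, binding and CD44 partner genes. Filled points passed the limma test: 0 were called higher and 2 lower, 0 and 0, 2 and 2, and 3 and 10 in the panels from left to right, with TLR4, ITIH5 and MMP9 having entered the fit through 1 group only.

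Genes within 1 Mb of the starts of the 8 genes were read from the same fit, to place the differences on the chromosomes. Of 80 tested neighbours 8 were called higher and 6 lower, with a median of 0.03, and 9.06% and 8.67% of all tested genes were called in these directions. The share of neighbours called was thus near the background. Without the 4 that entered the fit through 1 group only, 7 of 76 rose and 6 fell. Around CD44 there were 9 tested neighbours, 8 of them without AL133330.1, of which 3 rose and 1 fell. The 3 were CD44-AS1, ABTB2 and FJX1, and the gene that fell was APIP. CD44-AS1 lies inside CD44 and its reads cannot be told apart from those of CD44, so its rise is no separate observation. ABTB2, -781 kb from the CD44 start, had 7.48 and 7.42 TPM without and 28.4 and 33.0 TPM with the DEK knockout (log2 fold change 1.90, limma adjusted p = 0.0083). PDHX, whose start lies beside that of APIP, stood at 38.1 and 35.0 TPM in control cells against 29.7 and 31.0 TPM in knockout cells (limma adjusted p = 0.11). The median of chromosome 11 differed from the control mean by -0.00 in knockout 1 and by 0.04 in knockout 2 on the log2 scale.

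The HYAL genes had 28 tested neighbours, of which by limma SEMA3F, GNAI2 and MAPKAPK3 rose and 0 fell, against 9.06% and 8.67% of all tested genes. At an unadjusted limma p under 0.05, 7 were higher and 0 lower, against 2670 and 3386 of all 15815 tested genes. Their median was 0.18, against -0.06 over all tested genes. SEMA3F, a secreted semaphorin gene at 157 kb from the HYAL1 start, measured 3.57 and 4.12 TPM (controls) and 30.7 and 29.2 TPM (knockouts) (7.78-fold, limma adjusted p = 0.0057). HAS3 had 25 tested neighbours, of which by limma 0 rose and NQO1, SNTB2 and SLC7A6 fell, beside the same 9.06% and 8.67%. At an unadjusted limma p under 0.05, 3 were higher and 6 lower. Both tested neighbours that fell near HMMR, CCNG1 and MAT2B, were lower in both knockouts, and NUDCD2, whose start lies -0.063 kb from that of HMMR, had 9.55 and 7.60 TPM without and 6.47 and 6.14 TPM with the DEK knockout (limma adjusted p = 0.15). Near CEMIP, FAH rose 2.35-fold (limma adjusted p = 0.015). The 2 tested neighbours of HAS2 did not pass (limma). Medians of chromosomes 3, 5, 15 and 16 lay between -0.12 and 0.04 in either knockout. SEMA3F was the only neighbour called without control 1, and likewise without control 2.

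**Figure D4:**
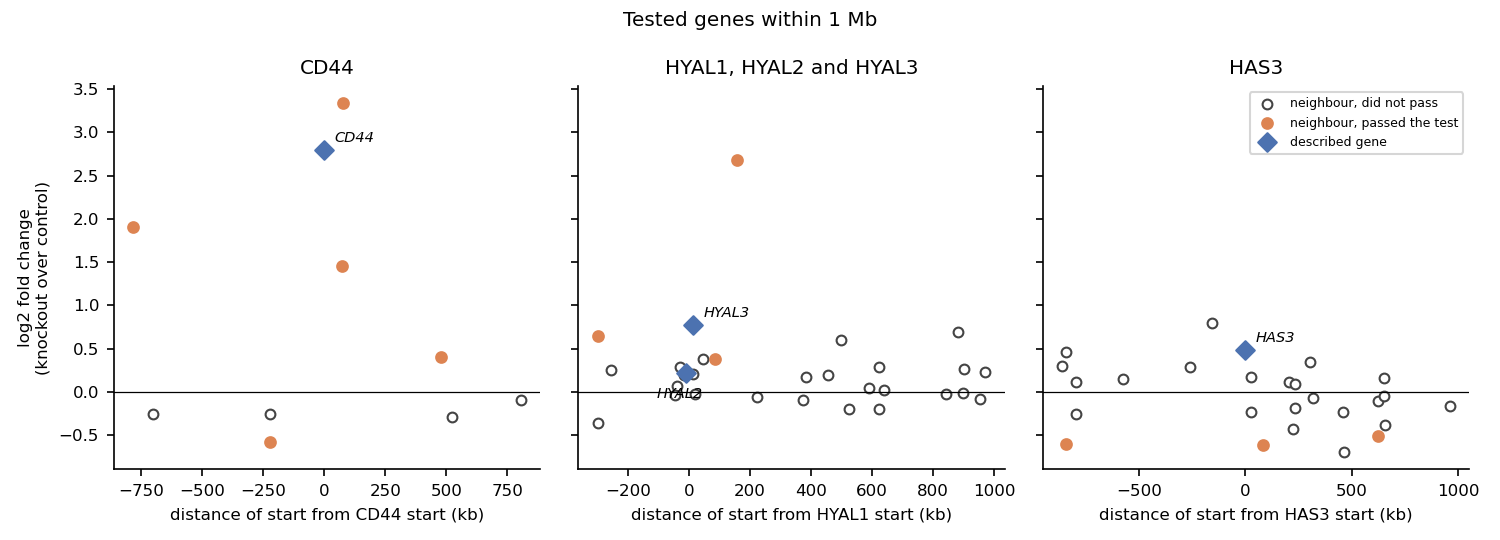
Log2 fold changes (knockout over control) of tested genes are plotted against the distance in kb of their start from that of CD44, HYAL1 or HAS3, positive in the direction of transcription. Diamonds are the described genes. Filled circles are neighbours that passed the limma test (5 of 9, AL133330.1 and CD44-AS1 inside CD44 included, 3 of 28 and 3 of 25). Open circles are those that did not.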

How the data were processed

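The authors deposited TPM (length-scaled transcript shares) for 59409 gene symbols in 4 libraries, each column summing to 1000000, so values are relative within a library. Build hg38 and the tools DESeq2 1.36.0, featureCounts 2.0.1, STAR 2.7.8a and cutadapt 1.18 are listed, without roles, per the submitters' processing notes. For annotation, gene lengths and strand the setting is not given in the sources used here. Groups and replicate numbers came from the sample titles.

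Positions and exon lengths are from GENCODE release 29 (GRCh38), with 54330 symbols matched by name and 1524 through current symbols. Depth was estimated from the steps of low TPM values. With these lengths 50.6% to 56.3% of estimates under 200 reads were whole within 0.02, so depths are approximate. Read numbers are given only where all 4 came out whole within 0.02 after a length correction of at most 5%.

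The 15815 genes that reached 1 TPM in 2 or more libraries were fitted as log2(TPM + 1) by group with limma 3.58.1 in R 4.3.3, with a variance prior following mean expression and Benjamini-Hochberg adjustment at 0.05. Fold changes on this scale understate those of low genes. A fold given without log2 divides the mean TPM of one group by that of the other. A gene that reached 1 TPM only in the group where it was higher is given by its values, with no test.

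The members and lists were chosen with earlier results of these data known. Named are all 8 genes, DEK, up to 6 called genes of each list by smallest p, those completing a count of 5 or fewer, and the 5 nearest profiles of genes with a mean of at least 5 TPM. Other list and neighbouring genes were named after their values were seen (ADAM10, ADAM17, EZR, SRSF1 and genes that did not pass). Alternatives covered pseudocount, filter, scaling, the variance prior, the GC trend, a replicate block and each library left out. For 1 listed gene the values are not reported here, though it is included in the counts.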

Additional observations from a re-analysis of the deposited data

How the results depend on the processing

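Both knockouts lay above both controls for CD44, HAS3, HYAL2 and HYAL3, so most of the 13 alternatives could not change the sign of their log2 differences. Only median-ratio scaling, quantile normalization and removal of the GC trend could have changed it, and they did not. CD44 lay between 2.38 and 3.21, HAS3 between 0.43 and 0.54, HYAL2 between 0.10 and 0.32 and HYAL3 between 0.66 and 0.84. The log2 difference of HMMR ranged from -0.68 to 0.17.

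Counts over lists depended on the filter, the variance prior and single libraries, and the cause was not tested. With no filter, limma called 26 of 31270 genes higher and 0 lower (3505 and 3663 at an unadjusted p under 0.05). In that fit 0 of the 8 described genes were called, and in the lists 0 genes apart from 1 neighbour that rose. DEK was then at -1.89 (adjusted p = 0.096). Without a variance trend 866 genes rose and 571 fell, DEK was at -1.89 (limma adjusted p = 0.056), and HAS3 was not called. In that fit 1 pathway gene rose (TLR4) and 2 fell (AMBP and ITIH5), and PTX3, UGDH and UAP1L1 were not called. TLR4 and ITIH5 had entered the fit through 1 group only. Further, 3 partner genes fell (EGFR, SLC3A2 and SRSF1), and 5 neighbours rose and 1 fell. With a minimum of 5 TPM 1 pathway gene rose and 3 mitosis genes fell. Under median-ratio scaling 1589 genes rose and 955 fell, against 1433 and 1371 without it, 2 pathway genes fell and 6 partner genes fell. Quantile normalization gave 3 falling mitosis genes. With the GC trend removed 7 pathway genes rose and 2 mitosis genes fell.

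With single libraries left out, the whole table gave 44 to 2375 rises and 1 to 3135 falls, pathway genes 0 to 4 and 0 to 10, partner genes 0 to 7 and 0 to 14, neighbours 1 to 12 and 0 to 9, mitosis genes 0 and 0 to 19, and DEK -2.37 to -1.41. Where an arm kept 1 library, it was assumed to vary like the other group.

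Replicate numbers are shared by the groups but nothing says that they pair the libraries. The deviations of same-numbered libraries correlated at 0.099. With a replicate block 1423 genes rose and 1548 fell, and 5 mitosis genes fell.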
